A study of Mus musculus with 4 samples.

Results

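The 10 genes described here make retinoic acid or carry its signal. They are the retinaldehyde dehydrogenases Aldh1a1, Aldh1a2 and Aldh1a3, the retinol and retinal enzymes Rdh10 and Dhrs3, the carrier Crabp2, and the receptors Rara, Rarg, Rxra and Rxrb. They were chosen by name, and all 10 were measured, out of 18194 genes in all, by 16 of the array's 45101 probe sets. A probe set is a group of short probes that reports 1 transcript or a few. Where a gene had several, the one with the highest average value was taken to stand for it, and the other 6 are given beside it.

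The cells were dendritic cells cultured from C57BL/6 bone marrow, taken from at least 3 mice per experiment. The culture lasted 7 days, with IL-4 and GM-CSF added at 10 ng/ml. CD11c-positive cells were isolated magnetically, with a stated purity of 95%, and received diluent (control, 2 arrays) or SAHA (2 arrays) for 12 hours. The labels give the dose of SAHA as 500 "nm". All 4 arrays therefore share the strain, the cytokines and the sort, and differ in the agent. SAHA (vorinostat) inhibits histone deacetylases, enzymes that take acetyl groups off histones and other proteins. The comparison asks how SAHA changed the expression profile of these cells.

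Retinoic acid is made from vitamin A in a pair of oxidation steps. Retinol is first oxidised to retinal, a step that RDH10 catalyses and that DHRS3 can run in reverse, and retinal is then oxidised irreversibly to retinoic acid by an ALDH1A enzyme. CRABP2 carries retinoic acid to the nucleus, where a retinoic acid receptor (RAR) paired with a retinoid X receptor (RXR) binds DNA. Without ligand the pair recruits corepressor complexes that contain histone deacetylases, and with ligand it recruits coactivators. Dendritic cells of the gut are known for making retinoic acid with ALDH1A2, which gives T cells gut-homing receptors and favours regulatory T cells.

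The DNA element through which the receptors act is a direct repeat of a short word with a spacer of fixed length, DR5 for the RAR and RXR pair. It is shown here in 2 genes whose promoters hold it, Rarb, a receptor gene, and Cyp26a1, whose enzyme breaks retinoic acid down. Both lines are from RefSeq (GRCm38.p6), end at the base before the gene's start, run 5′ to 3′ on the gene's strand, and have the DR5 element in capitals. The Rarb stretch is chr14:16575477-16575536, minus strand. The Cyp26a1 stretch is chr19:37697748-37697807, plus strand, and its element reads on the opposite strand.
Rarb: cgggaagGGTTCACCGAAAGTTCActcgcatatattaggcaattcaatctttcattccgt
Cyp26a1: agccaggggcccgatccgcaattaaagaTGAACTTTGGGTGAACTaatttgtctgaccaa

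The search covered both strands of a window from 250 bases before to 50 bases after each start in the RefSeq table. A DR5 element was found in 32 of 32851 such windows (0.0974%). Of the 10 genes 7 had an entry, with 16 windows in all, and none of the 16 held a DR5 element or the DR2 element, which has a shorter spacer (0.268% of all windows). The single word of the repeat, AGGTCA, was present for 3 of the 7 genes, Rara, Rarg and Rxra (18.1% of all genes searched), and AGTTCA for Rara (15.7%). A motif match is a description of the sequence and not a measured binding site. Among 14 genes listed as known retinoic acid targets that had an entry, Rarb and Cyp26a1 held DR5.

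None of the 10 genes passed the test over all genes (limma, Benjamini-Hochberg adjusted p under 0.05), where 405 genes did, a background of 2.23%. The log2 changes, SAHA minus control, ran from -0.49 for Aldh1a2 to 0.34 for Rara. With 2 arrays per group the unadjusted p was under 0.05 for 1 of the 10, Aldh1a3, against 18.1% of all genes. The groups did not overlap for 7 of the 10 genes, 5 lower with SAHA (Aldh1a1, Aldh1a2, Aldh1a3, Rdh10 and Rxra) and 2 higher (Rara and Rxrb). Aldh1a1 had all 4 values under the 25th percentile of its array, and without it the count was 6 of 9 genes, 4 lower and 2 higher. Over all genes 50.7% had groups that did not overlap, 29.6% lower and 21.1% higher. No probe set of the 16 passed over all probe sets, of which 0.534% did. The median change of the 10 genes was -0.12, beside -0.05 over all genes. In such bulk samples, fewer cells of a type and less RNA per cell cannot be told apart.

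**Figure D1:**
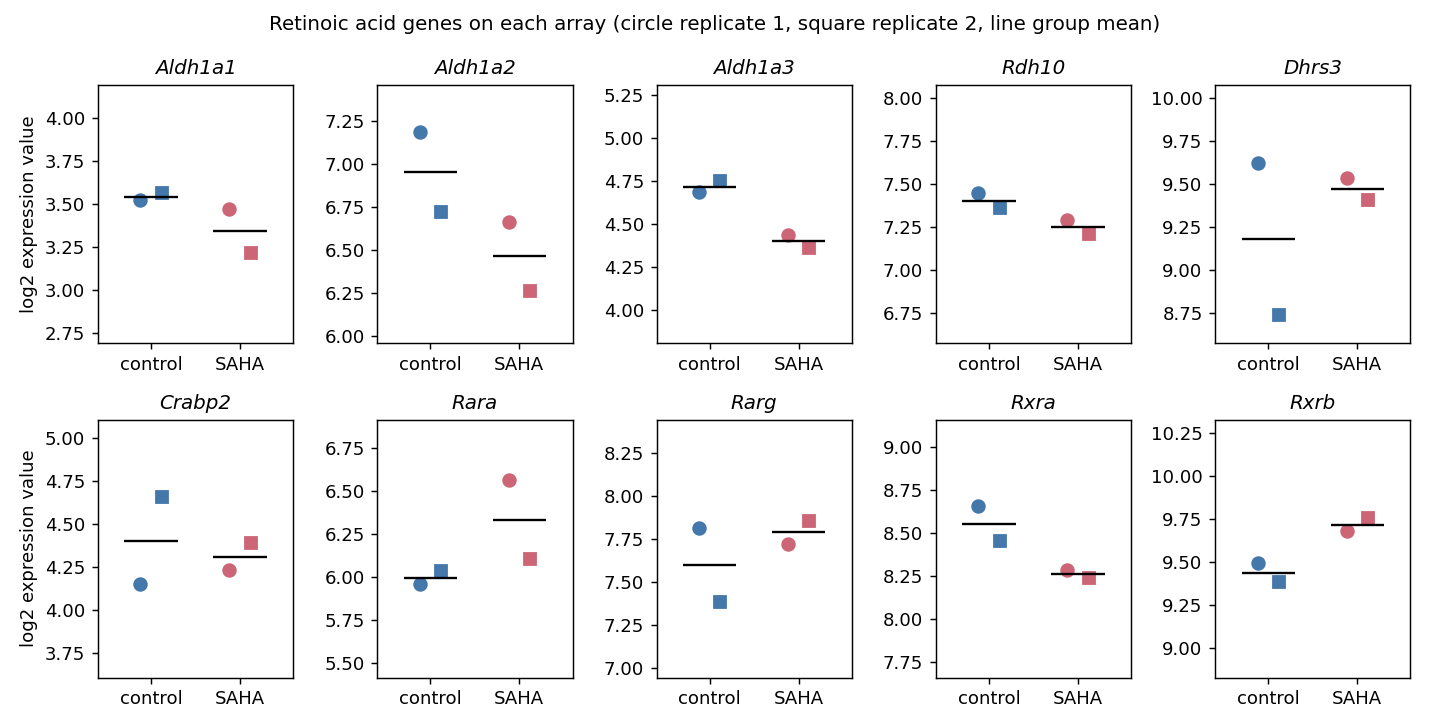
Log2 expression value of each of the 10 genes on every array, in control (blue) and SAHA-treated (red) cells, with circles for replicate 1, squares for replicate 2 and a line at the group mean; every panel spans the same height on the log2 scale. The groups do not overlap for 7 genes, and the gap between them is smallest for Aldh1a1 (0.05) and largest for Aldh1a3 (0.25).

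Aldh1a2 encodes the retinaldehyde dehydrogenase that GM-CSF and IL-4 are known to induce in dendritic cells. Its log2 values were 7.19 and 6.72 in control replicates 1 and 2, and 6.66 and 6.26 in SAHA replicates 1 and 2. Both SAHA values were below both control values, with a gap of only 0.06 between the lower control and the higher SAHA array, while the arrays of a group lay 0.47 (control) and 0.40 (SAHA) apart. Replicate 1 was the higher array in both groups, and same-numbered arrays differed by -0.52 and -0.46 (SAHA minus control). The labels do not say that a number marks a shared culture, so the arrays were not treated as pairs. The change was -0.49 ± 0.23 (SE, adjusted p = 0.320, limma), a ratio of 1.41 in favour of control. It ranged from -0.72 to -0.26 without each array in turn. Its 95% interval ran from 2.05-fold lower to 1.04-fold higher with SAHA. This was the largest change of the 10 in size, and 12.3% of all genes had a larger one. One probe set reports the gene.

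Aldh1a3, a second retinaldehyde dehydrogenase, had values of 4.69 and 4.75 in control and 4.44 and 4.37 in SAHA-treated cells. The arrays of each group lay within 0.07 of each other, and the SAHA values were below the control values by at least 0.25. The change was -0.32 ± 0.12 (SE, unadjusted p = 0.0339, adjusted p = 0.234, limma), and the 95% interval, which is not adjusted for the number of genes, was -0.60 to -0.03. All 4 values lay above the 25th percentile of their array. Of its further probe sets, 1 gave -0.25 with overlapping groups and 1 value under that percentile, and 1 gave -0.03 with all 4 values under it.

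Aldh1a1, the third enzyme of this class, had values of 3.52 and 3.56 in control and 3.47 and 3.22 in SAHA-treated cells. All 4 were below the 25th percentile of all probe sets on the same array (3.94 to 4.04), a range in which no direction was read here. Its difference of -0.20 ± 0.11 (SE, adjusted p = 0.403, limma) is therefore given only as a value. It was the 1 gene of the 10 with any value that low.

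The promoter stretches of Aldh1a2 and Aldh1a1 are shown because both hold an octamer, ATGCAAAT, close to the start, a word picked after the sequences were seen. It stands in capitals in the 100 bases before the start of Aldh1a2 (chr9:71215689-71215788, plus strand) and of the downstream of 2 starts of Aldh1a1 (chr19:20601868-20601967, plus strand), both RefSeq, GRCm38.p6. The octamer is known as the site of POU-domain (Oct) factors.
Aldh1a2: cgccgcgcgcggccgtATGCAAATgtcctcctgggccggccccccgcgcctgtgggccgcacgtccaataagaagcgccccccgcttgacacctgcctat
Aldh1a1: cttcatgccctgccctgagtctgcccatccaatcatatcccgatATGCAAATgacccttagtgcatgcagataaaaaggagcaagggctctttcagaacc

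Of all genes searched 1.97% held this octamer in a window, and of the 7 genes with an entry it was found in these 2 alone. By window it was in 2 of their 16, beside 1.74% of all windows. No binding was measured in these samples.

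Rdh10 encodes the retinol dehydrogenase of the first oxidation step. Its values were 7.45 and 7.36 in control and 7.29 and 7.21 in SAHA-treated cells, close within each group and 0.07 apart between the nearest arrays of both. The change was -0.15 ± 0.15 (SE, adjusted p = 0.633, limma), and the 95% interval ran from 1.43-fold lower to 1.16-fold higher. A further probe set, at a level of 4.39 to 4.69, gave -0.10 with overlapping groups.

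Dhrs3, which returns retinal to retinol and is itself a known retinoic acid target, had values of 9.63 and 8.74 in control and 9.54 and 9.41 in SAHA-treated cells. Control replicate 2 stood apart from the other 3 arrays, 0.67 below the next, and the groups overlapped. The change of 0.29 ± 0.28 (SE, adjusted p = 0.631, limma) had the widest interval of the 10, from 1.31-fold lower to 1.96-fold higher. Without control replicate 2 it was -0.15, and without control replicate 1 it was 0.73, so its direction rested on a single array. Crabp2, the carrier, had values of 4.15 and 4.66 in control and 4.23 and 4.39 in SAHA-treated cells, and its groups overlapped. Its change was -0.09 ± 0.18 (SE, adjusted p = 0.820, limma), or 0.16 without control replicate 2.

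**Figure D2:**
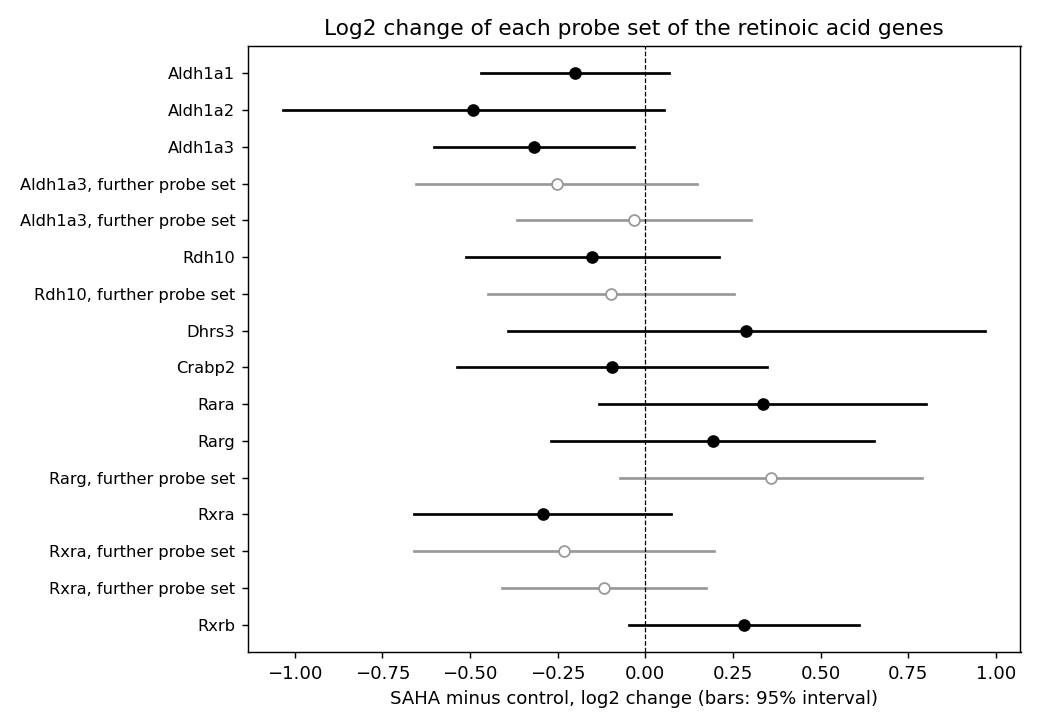
Log2 change, SAHA minus control, of the 16 probe sets of the 10 genes, with bars for the unadjusted 95% interval; filled points are the probe sets that stand for a gene and open points the 6 further ones. Each further probe set has the sign of its gene's main probe set, and the interval of Aldh1a3 (-0.60 to -0.03) is the one among the filled points that leaves out 0.

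Rara encodes the retinoic acid receptor alpha, the RAR most often described in blood cells. Its values were 5.96 and 6.04 in control and 6.56 and 6.11 in SAHA-treated cells. SAHA replicate 1 was high, and SAHA replicate 2 exceeded the higher control array by only 0.07. The change was 0.34 ± 0.19 (SE, adjusted p = 0.420, limma), or 0.11 without SAHA replicate 1, and its interval ran from 1.10-fold lower to 1.74-fold higher.

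Rarg, the gamma receptor, had values of 7.81 and 7.38 in control and 7.72 and 7.85 in SAHA-treated cells. Control replicate 2 was the low array and the groups overlapped. The change was 0.19 ± 0.19 (SE, adjusted p = 0.637, limma), or -0.02 without control replicate 2. A further probe set had 6.75 and 6.50 in control and 7.06 and 6.90 in SAHA-treated cells, with no overlap, and gave 0.36 ± 0.18 (SE, adjusted p = 0.414 over all probe sets, limma). Both probe sets of Rarg, like the main ones of Aldh1a3, Rdh10, Dhrs3 and Rara, are of a type that can report several transcripts of a gene.

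Rxra encodes the retinoid X receptor alpha, the common partner of RAR, PPAR and LXR receptors. Its values were 8.66 and 8.45 in control and 8.29 and 8.24 in SAHA-treated cells. The groups were 0.17 apart, and the change was -0.29 ± 0.15 (SE, adjusted p = 0.376, limma), or -0.19 without control replicate 1. Its further probe sets gave -0.23 and -0.12, each with both SAHA arrays below both control arrays. The interval of the main probe set ran from 1.58-fold lower to 1.05-fold higher.

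Rxrb, the beta partner, had values of 9.49 and 9.38 in control and 9.68 and 9.76 in SAHA-treated cells. The groups were 0.19 apart, and the change was 0.28 ± 0.14 (SE, adjusted p = 0.344, limma), with an interval from 1.03-fold lower to 1.53-fold higher. One probe set reports it. Rxra and Rxrb thus had values of opposite sign. Without each array in turn Rxra ranged from -0.40 to -0.19 and Rxrb from 0.22 to 0.34. Groups that do not overlap keep their sign in such fits, so these ranges bear on size only.

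**Figure D3:**
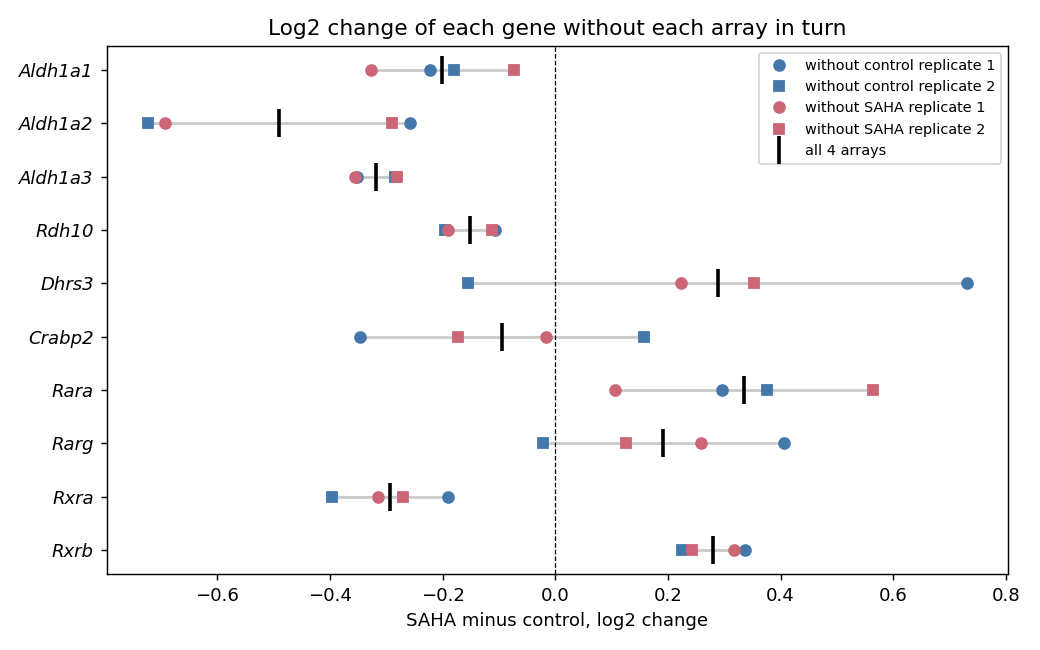
Log2 change, SAHA minus control, of each gene with all 4 arrays (black bar) and without each array in turn (blue without a control array, red without a SAHA array; circles replicate 1, squares replicate 2). The points of Dhrs3, Crabp2 and Rarg cross 0 when control replicate 2 is left out, at -0.15, 0.16 and -0.02. The groups of the other 7 genes do not overlap, so their points must stay on 1 side.

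The precision of these genes was close to that of the array as a whole. The SE was 0.11 to 0.28 for the 10 genes, with a median of 0.17, beside 0.15 over all genes. The smallest change in size among the 405 genes past the threshold was 0.57, larger than any of the 10. The median size of change was 0.28 for the 10 genes, 0.17 over all genes and 1.17 among the genes past the threshold.

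**Figure D4:**
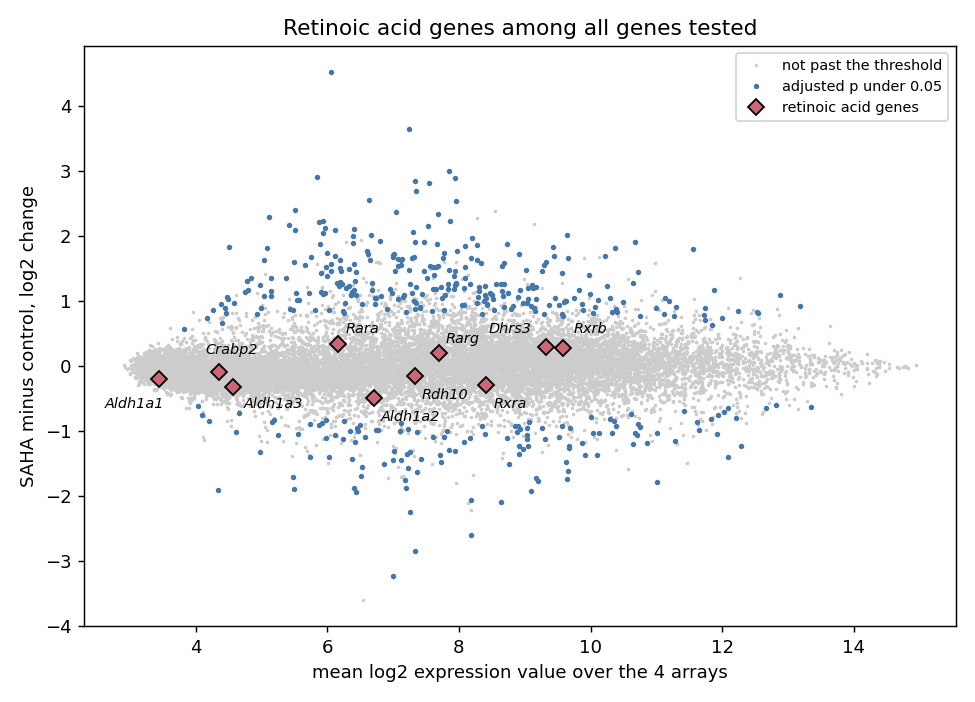
Log2 change, SAHA minus control, of 18194 genes against their mean log2 value over the 4 arrays, with the 405 genes past the threshold in blue and the 10 retinoic acid genes as labelled diamonds. The diamonds lie between -0.49 and 0.34, inside the band of genes that did not pass.

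Other genes of the pathway were read as lists by role, drawn up with earlier results of these data known. A count in a list beside the share of all genes is therefore a description only. Among 14 measured genes of retinoid uptake, storage and binding, 2 rose and 1 fell, where 1.52% of all genes rose and 0.709% fell (limma, adjusted p under 0.05); the list median was -0.05. Stra6l encodes RBPR2, a receptor for the retinol-binding protein RBP4. Its values were 8.20 and 7.91 in control and 6.11 and 6.50 in SAHA-treated cells, with no overlap. It fell by 1.75 on the log2 scale (SE 0.20, adjusted p = 0.0177, limma), a 3.37-fold difference. Without SAHA replicate 1 the change was -1.56 and the call was lost (adjusted p = 0.101). In such a fit the single array left in a group has no spread of its own, and that of the other pair is used for it.

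Dgat1, an acyltransferase that makes triglycerides and can also esterify retinol, had values of 9.66 and 9.55 in control and 10.65 and 10.57 in SAHA-treated cells. It rose 2.01-fold (log2 change 1.01 ± 0.13, SE, adjusted p = 0.0241, limma). Its further probe set gave 0.36, and the call was lost when both were averaged (0.68, adjusted p = 0.0828) and without SAHA replicate 1 (adjusted p = 0.172) or SAHA replicate 2 (0.0942). Bco2, an enzyme that cleaves carotenoids, had 5.18 and 5.57 in control and 6.36 and 6.62 in SAHA-treated cells and rose 2.17-fold (log2 change 1.12 ± 0.19, SE, adjusted p = 0.0447, limma). Its call was lost in 9 of 15 alternatives, among them the fits without control replicate 1 (0.0620), SAHA replicate 1 (0.170) and SAHA replicate 2 (0.168). Lrat, the main enzyme of retinol storage, had all 4 values under the 25th percentile.

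Of all genes 0.709% fell and 1.52% rose. Among 20 measured oxidoreductases outside the 10 genes, 1 fell and none rose (list median -0.13). This was Dhrs4, a peroxisomal enzyme that acts on retinal and retinol, with 8.15 and 8.19 in control and 6.28 and 6.80 in SAHA-treated cells. It fell by 1.63 on the log2 scale (SE 0.21, adjusted p = 0.0238, limma), a 3.10-fold difference. Its further probe set fell by 1.61 (adjusted p = 0.0365 over all probe sets, limma), and the call of the main one was lost without SAHA replicate 1 (-1.37, adjusted p = 0.108). Rdh11, a retinal reductase, had a change of 0.70 (adjusted p = 0.0981) and Rdh14, a related enzyme, of -0.66 (0.193), or -0.36 without SAHA replicate 1.

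**Figure D5:**
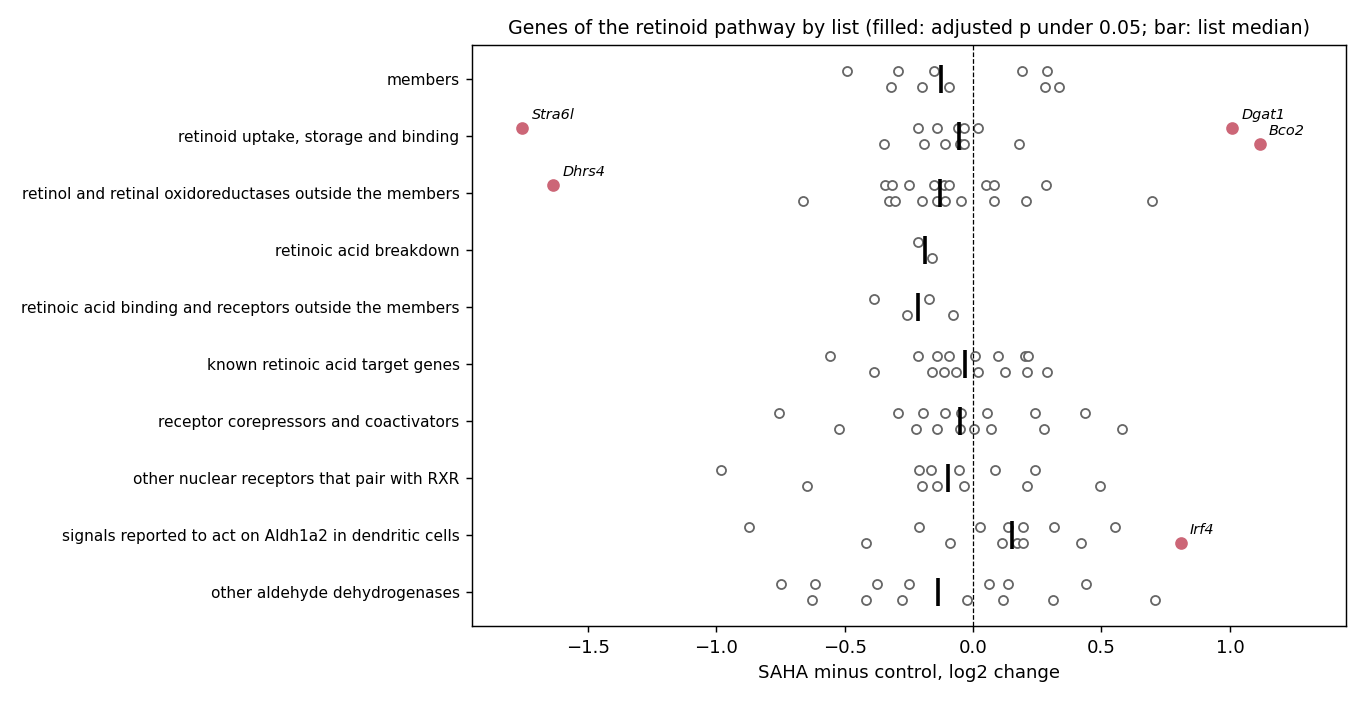
Log2 change, SAHA minus control, of the 10 genes and of 9 lists of related genes, 1 point per gene, with points past the threshold filled and named and a bar at each list's median. The filled points are Stra6l (-1.75), Dhrs4 (-1.63), Dgat1 (1.01), Bco2 (1.12) and Irf4 (0.81); none lies in the top line.

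The genes that break down or answer to retinoic acid gave no call. Cyp26a1 had values of 5.25 and 5.63 in control and 5.08 and 5.37 in SAHA-treated cells, which overlapped, with a change of -0.21 ± 0.19 (SE, adjusted p = 0.595, limma). This was -0.021 without control replicate 2 and -0.065 without SAHA replicate 1. Cyp26b1, the second breakdown enzyme measured, had -0.16 (0.593). Rarb, named outside the rule because its promoter is printed, had 4.35 and 4.36 in control and 3.90 and 4.03 in SAHA-treated cells, 1 of them under the 25th percentile, and a change of -0.39 (0.142). Of 16 measured target genes, Dhrs3 and Crabp2 among them, 8 lay above 0 and 8 below (median -0.03). In 3 of the 16 all 4 values were under the 25th percentile. Over all 18194 genes 7500 lay above 0 and 10689 below. Tgm2, the transglutaminase TG2 and a classical retinoic acid target, had 11.50 and 11.57 in control and 10.88 and 11.09 in SAHA-treated cells, with no overlap, and a change of -0.56 ± 0.13 (SE, adjusted p = 0.0962, limma). Hic1, a transcriptional repressor, had 0.21 (0.534), or 0.11 without control replicate 2 or without SAHA replicate 1.

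All 4 measured genes of retinoic acid binding and receptors outside the 10 lay below 0 with groups that did not overlap, as 29.6% of all genes did, and none passed. Only 2 of the 4, Fabp5 and Rxrg, had every value above the 25th percentile. Fabp5, which carries retinoic acid to PPAR delta, had a change of -0.26 ± 0.11 (SE, adjusted p = 0.294, limma), and Rxrg, the gamma partner, of -0.17 (0.568). Crabp1 had all 4 values under the 25th percentile.

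None of 16 corepressors and coactivators passed (median -0.05). The acetyltransferase Crebbp, a coactivator, had a change of -0.76 (adjusted p = 0.0759, limma), but -0.26 (adjusted p = 0.501) with its probe sets averaged. Ncoa2, another coactivator, had -0.52 (0.245), or -0.28 without SAHA replicate 1, and Lcor, a corepressor, had 0.58 (0.151). Among 12 other nuclear receptors that pair with RXR none passed (median -0.10). Nr1h3, the LXR alpha receptor of oxysterols, had 7.08 and 7.52 in control and 6.12 and 6.51 in SAHA-treated cells and a change of -0.98 ± 0.22 (SE, adjusted p = 0.0863, limma), and passed without control replicate 1 (-1.20, adjusted p = 0.0431). Nr4a2 had -0.65 (0.143), or -0.35 (adjusted p = 0.306) with its probe sets averaged, and the thyroid hormone receptor gene Thra 0.50 (0.209).

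Over all genes 1.52% rose and 0.709% fell, with a median change of -0.05. Of 14 measured genes for signals reported to act on Aldh1a2 in dendritic cells, 1 rose and none fell (median 0.15). This was Irf4, a transcription factor of dendritic cells, with 9.73 and 9.55 in control and 10.48 and 10.42 in SAHA-treated cells, a 1.75-fold rise (log2 change 0.81 ± 0.14, SE, adjusted p = 0.0431, limma). The call was lost in 8 of 16 alternatives, among them the mean with its further probe set (0.53, adjusted p = 0.215), and without control replicate 2 (0.105), SAHA replicate 1 (0.279) or SAHA replicate 2 (0.154). Csf2ra, the GM-CSF receptor alpha chain, had 13.03 and 12.56 in control and 12.09 and 11.75 in SAHA-treated cells, with a change of -0.87 ± 0.19 (SE, adjusted p = 0.0829, limma), and passed without control replicate 2 (-1.11, adjusted p = 0.0321). With its probe sets averaged the change was -0.52 (adjusted p = 0.404). Il4ra, the IL-4 receptor alpha chain, named outside the rule, had 0.11 (0.814), and Tlr2 had 0.55 (0.159), or 0.33 without SAHA replicate 1.

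The labelled cell type was checked on its markers. Itgax, the CD11c gene, had log2 values of 12.44 to 13.40, Cd74 of 14.17 to 14.23 and H2-Aa of 14.20 to 14.45 on the 4 arrays, while Xcr1 and Cd209a were near the low end, at 3.82 to 4.24 and 4.47 to 4.68. Of 13 measured dendritic cell markers 4 lay above 0 and 9 below, and 1, Irf4, passed. Dpp4 had a change of -0.87 (adjusted p = 0.0909, limma) and Ccr7 of -0.49 (0.1175), each lower with SAHA without overlap. Macrophage markers were present too, with Csf1r at 13.81 to 13.96, C1qb at 12.69 to 13.35 and Cd14 at 12.73 to 12.99. Of 9 measured, 3 lay above 0 and 6 below, with no call. Mertk had a change of -0.92 without overlap (adjusted p = 0.0509, limma). Fcgr1 and C1qa differed more between replicates than between groups. For C1qa the values were 10.56 and 11.86 in control and 10.88 and 12.22 with SAHA. The summed level of macrophage markers overlapped between groups (15.41 to 15.69 in control, 15.34 to 15.68 with SAHA, log2). Neutrophil markers moved with the treatment. Of these 8 of 8 were below 0 and 5 fell (Ngp, Camp, Ltf, S100a8 and S100a9). Over all 18194 genes 10689 lay below 0 and 0.709% fell. Lcn2, Elane and Mpo were not called, and Mpo had 2 values under the 25th percentile. The log2 of the summed level of the neutrophil markers was 11.73 to 11.74 in control and 10.69 to 10.73 with SAHA. Their part in the values of the 10 genes, and in those of Stra6l and Dhrs4, was not tested. Stromal markers summed to 7.79 to 8.08 in control and 7.77 to 7.96 with SAHA, with no call.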

How the data were processed

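The values are log2 expression per probe set on 4 Affymetrix arrays, as deposited by the authors in a single table. That the scale is log2 was read from the values (2.59 to 15.0, array medians within 0.0118). Per the submitters' processing notes R 2.7 was used, and the summarisation and normalization are not given in the sources used here. Arrays give no read depth, and their number limits the precision.

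Of 45101 probe sets 34958 had 1 symbol, 932 several and 9211 none in the platform annotation. Symbols were updated through the Entrez identifier in a RefSeq table (34754 matched), which gave 18194 genes. The groups were compared by limma (version 3.58.1, R 4.3.3; lmFit, then eBayes with an intensity trend), two-sided, with no filter and no covariate, and Benjamini-Hochberg adjustment over all genes. Further probe sets were tested over all probe sets. The same test was also run on simulated arrays, and no outcome of that run is used here. Those arrays were drawn independently and lack the shared deviation of same-numbered arrays given below. An SE is the moderated one. A fit without 1 array takes the spread from the intact group and applies it to the lone array. The labels speak of biological replicates but do not state separate marrow pools, so p-values measure only the spread between these arrays. An exact two-sided permutation test of 2 against 2 arrays cannot go below p = 0.333.

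The members and lists were chosen with earlier results of these data known. Beside the 10 genes, the text names from each list the genes past the threshold and the 3 largest changes above the 25th percentile of gene levels; other names are markers, genes at the low end, or said to be outside this rule. Listed genes without a measured probe set of their own are not analysed here. Same-numbered arrays deviated together from their group means (r = 0.57 across 18194 genes, which are not independent), but the labels do not say that a number marks a shared culture, so they were not treated as pairs.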

Additional observations from a re-analysis of the deposited data

How the results depend on the processing

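The changes of the 10 genes were recomputed under 16 alternatives, of which the 1 restricted to genes above the median level leaves out Aldh1a1, Aldh1a3, Crabp2 and Rara. Of 156 values 152 kept their sign and their side of the threshold. Much of this was fixed in advance, so the count does not measure robustness. Alternatives that alter only the spread or the threshold leave the log2 change, and so its sign, as it was. A stricter threshold cannot pass a gene that failed the main one, and groups that do not overlap keep their sign without 1 array. The 3 values whose sign turned were all without control replicate 2. Without each array in turn Dhrs3 ranged from -0.15 to 0.73, Crabp2 from -0.35 to 0.16 and Rarg from -0.022 to 0.41. The other value that did not keep both was Aldh1a2 with the replicate block, where replicate number is a term in the model. Its change stayed at -0.49 and passed (adjusted p = 0.0227, limma), the 1 member that did. With the block 3616 of 18194 genes passed (19.9%), against 405 without it, and the numbers are not known to mark shared cultures. Aldh1a2 ranged from -0.72 to -0.26 without each array in turn. No member passed in any other alternative. Over all genes 226 passed among genes above the median level, 241 of all probe sets on their own, 8 at an adjusted p under 0.01 and 0 in an ordinary linear model, where 2210 had an unadjusted p under 0.05. Without each array in turn 31 to 529 passed, 31 without SAHA replicate 1 and 90 without SAHA replicate 2. Among further probe sets, 1 of Aldh1a3 with all values under the 25th percentile had 0.012 with quantile normalization and -0.18 to 0.12 without each array in turn, and 1 of Rdh10 had -0.22 to 0.025. The causes were not tested. Of 457 values for other named genes and further probe sets, 408 kept their sign and side. The threshold was lost by 28 and gained by 17, 15 of these with the replicate block. Here too, alternatives that alter only the spread or the threshold could not turn a sign.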

Other observations

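The wider family of aldehyde dehydrogenases, to which the retinaldehyde dehydrogenases belong, had no call among 14 further measured genes. Of these 6 lay above 0 and 8 below, with a median log2 change of -0.14. In 1 of the 14 all 4 values were under the 25th percentile. Aldh16a1 had values of 9.08 and 8.92 in control and 8.20 and 8.31 in SAHA-treated cells and a change of -0.75 ± 0.15 (SE, adjusted p = 0.0638, limma). Aldh6a1, the methylmalonate semialdehyde dehydrogenase of valine breakdown, had 7.76 and 7.47 in control and 8.40 and 8.26 in SAHA-treated cells, a change of 0.71 ± 0.17 (adjusted p = 0.0989). Aldh7a1, of lysine breakdown, had -0.63 ± 0.19 (adjusted p = 0.156), or -0.28 with its probe sets averaged. Changes of this family therefore lay on both sides of 0.

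The signal of Rxrb was set against that of Rxra within each array, a pair chosen after the values were seen and given without a test. The log2 ratio, whose zero has no meaning since 2 probe sets are involved, was 0.84 and 0.93 in control and 1.40 and 1.52 in SAHA-treated cells. The groups differed by 0.57. Their arrays could not overlap, because Rxra was lower and Rxrb higher with SAHA, each without overlap. For Rara over Rxra the ratio was -2.70 and -2.41 in control and -1.72 and -2.13 in SAHA-treated cells, a difference of 0.63. These arrays could not overlap either, as Rara was higher with SAHA without overlap.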
